A study of Homo sapiens with 9 samples.

Results

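The BCL2 family decides whether the outer membrane of the mitochondrion stays closed or opens and releases cytochrome c. Its RNAs were followed here through 10 genes, picked by gene symbol from the 18143 genes listed for each library. They were the antiapoptotic genes BCL2, BCL2L1, BCL2L2 and MCL1, the effector genes BAX and BAK1, and the BH3-only genes BID, BBC3, PMAIP1 and BCL2L11. All 10 were listed in every library, and all 10 were among the 14205 genes that passed the filter on low counts.

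A549 is an established line from a human lung adenocarcinoma. The cells received a scramble siRNA (the control), SiREV1#1 or SiREV1#2 and were collected 48 h later, in 3 replicates each. Both SiREV1 siRNAs target REV1, a polymerase of translesion DNA synthesis, and all 3 groups went through transfection. The cells are a single line with transient knockdown. The study's methods state that in vitro experiments were repeated independently, but the labels do not say of these libraries whether replicates were separate cultures. The p-values measure the spread between these libraries, part of which may be technical.

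In healthy cells the antiapoptotic proteins hold the effectors and the BH3-only proteins in check. When BH3-only proteins accumulate, they occupy the antiapoptotic proteins or act on BAX and BAK directly, and the effectors then assemble into pores. Cytochrome c released through them meets APAF1 and caspase-9, which starts the caspase cascade. PUMA is the product of BBC3 and NOXA that of PMAIP1, and NOXA is known to bind MCL1 preferentially. Lung cancer cells are known to rely on BCL-XL, the product of BCL2L1, and on MCL1. All values below are RNA, and proteins were not measured in these files.

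Levels are given as FPKM, fragments scaled by gene length and library size. Fold changes come from the counts. In edgeR's quasi-likelihood test, a gene is called here when its p-value, adjusted by Benjamini-Hochberg over the 14205 genes, is under 0.05. This test was fitted without a block and again with the replicate number as a block, which compares same-numbered libraries. P-values with the block measure only the spread left after shifts shared by same-numbered libraries are removed. Total counts were between 13059082 and 20166451. The lowest was in SiREV1#1 replicate 1, and every other library had at least 18121913. In that library MTRNR2L2 had the highest FPKM, and in every other library FTL did. The count column of SiREV1#2 replicate 3 repeated that of replicate 2 at 100.0% of genes, so the count tests held 8 libraries, of which 2 were SiREV1#2, and FPKM covered all 9. REV1 itself was lower than in the same-numbered scramble library in 3 of 3 pairs for both siRNAs. The REV1 FPKM was 7.86 ± 0.61 in the scramble libraries, 2.96 ± 0.38 with SiREV1#1 and 3.39 ± 0.22 with SiREV1#2 (SD, n = 3 in each group). Of 8 epithelial and A549 markers, 8 were listed and their summed FPKM ranged from 8324 to 19560, although EPCAM stayed under 3. Alveolar differentiation markers were low, with 3 of 4 under 1 FPKM in every library and a highest value of 2.84. Of the immune markers, PTPRC and LYZ were under 1 in every library and CD68, which is not specific to immune cells, reached 81.6. The 3 endothelial markers were under 1 FPKM in every library, as were 3 of 4 fibroblast markers.

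Replicate 1 stood apart from replicates 2 and 3 in all 3 groups, for a reason that was not tested. Relative to the mean of replicates 2 and 3 of its own group, replicate 1 was lower for 8 members in all 3 groups, higher for 1 (BCL2L11) and mixed for 1 (BID). On the log2(FPKM + 1) scale replicate 1 differed from that mean by -2.33 to -2.09 in BBC3, by -2.17 to -1.12 in PMAIP1 and by 1.70 to 2.30 in BCL2L11. Replicates 2 and 3 differed by at most 1.47-fold in any member, in BCL2 after SiREV1#1. In bulk libraries such as these, fewer cells with an RNA and less of it per cell cannot be told apart.

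The members on which the results turned most were PMAIP1, BAX and BAK1, and the 250 bases before their transcription starts are printed to show what lies there. The sequences are from RefSeq (GRCh38.p14), which held entries for 8 of the 10 members, and are written 5′ to 3′ on the strand of the gene. Capitals mark an E-box (CACGTG, the same on both strands) or a CRE half-site (TGACGT, or ACGTCA on the other strand). These motifs were chosen after the sequences were seen.
PMAIP1 lies at 59899996 to 59904305 on the plus strand of chromosome 18, and its stretch is chr18:59899746-59899995. BAX lies at 48954875 to 48961798 on the plus strand of chromosome 19, and its stretch is chr19:48954625-48954874. BAK1 lies at 33572552 to 33580276 on the minus strand of chromosome 6, and its stretch is chr6:33580277-33580526.
PMAIP1: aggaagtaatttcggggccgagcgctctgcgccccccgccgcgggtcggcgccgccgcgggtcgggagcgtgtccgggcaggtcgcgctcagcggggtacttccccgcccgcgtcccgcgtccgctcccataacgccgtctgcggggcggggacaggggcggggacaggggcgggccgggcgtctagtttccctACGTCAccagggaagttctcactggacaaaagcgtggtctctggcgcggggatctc
BAX: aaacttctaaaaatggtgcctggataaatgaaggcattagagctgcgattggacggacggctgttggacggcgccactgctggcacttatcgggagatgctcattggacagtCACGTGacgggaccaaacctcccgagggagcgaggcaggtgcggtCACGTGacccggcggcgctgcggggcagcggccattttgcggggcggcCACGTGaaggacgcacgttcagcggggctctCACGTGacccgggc
BAK1: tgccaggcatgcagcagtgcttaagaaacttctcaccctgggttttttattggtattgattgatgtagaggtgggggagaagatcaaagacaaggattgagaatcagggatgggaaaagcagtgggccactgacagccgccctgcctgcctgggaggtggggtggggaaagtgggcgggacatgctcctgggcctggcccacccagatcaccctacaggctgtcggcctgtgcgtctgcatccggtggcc
The BAX stretch held 4 E-boxes and the PMAIP1 stretch held 1 CRE half-site, while the BAK1 stretch held neither. Among the other members with entries, the BBC3 stretch held 1 E-box. Of the 5 BID stretches, 2 that overlap held the same E-box. Neither BBC3 nor BID was called with the block in any comparison. The stretches of BCL2, BCL2L1 and BCL2L11 held neither motif. Positions are on GRCh38. Of 35116 stretches of this length before annotated starts, 6.34% held an E-box and 7.1% held a CRE half-site. The matches are a description of the letters and not of binding.

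PMAIP1, the NOXA gene, had the largest fitted change of the 10 members. Its FPKM was 4.61, 23.44 and 24.91 in scramble replicates 1, 2 and 3. After SiREV1#1 it was 1.22, 3.90 and 3.72, and after SiREV1#2 it was 4.41, 20.24 and 20.71. All 3 SiREV1#1 libraries were below all 3 scramble libraries and below all 3 SiREV1#2 libraries. Within same-numbered pairs PMAIP1 stood at 0.265, 0.166 and 0.149 times the scramble level after SiREV1#1. After SiREV1#2 it stood at 0.957, 0.864 and 0.831 times that level. In edgeR's quasi-likelihood test without a block its log2 fold change for SiREV1#1 was -2.53 (SE 0.82), with an adjusted p of 0.33. With the replicate block it fell by 2.43 on the log2 scale (SE 0.20, adjusted p = 0.0011 by edgeR), and the call held when each of the 8 libraries was left out in turn. SiREV1#2 gave -0.19 (SE 0.22, adjusted p = 0.72 by edgeR with the block). The difference between the siRNAs was itself past the threshold with the block, at -2.23 (SE 0.23, adjusted p = 0.0017 by edgeR), and without a block it was -2.03 (SE 0.86, adjusted p = 0.40 by edgeR).

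**Figure D1:**
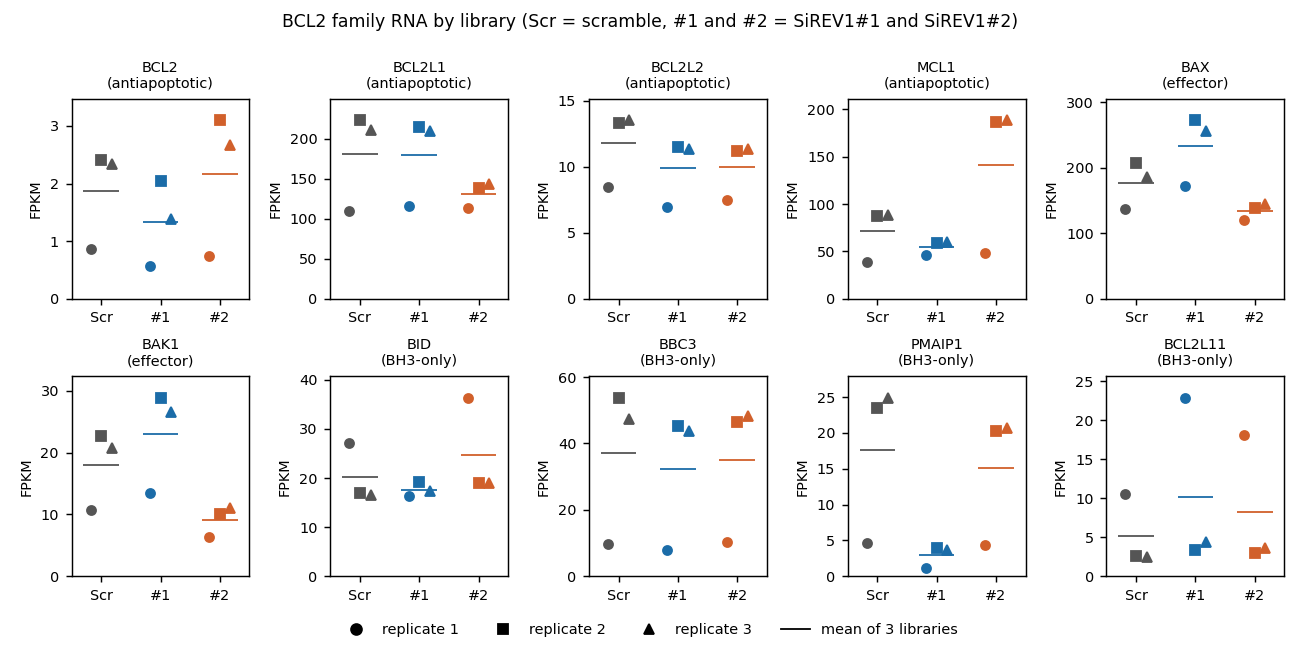
FPKM (vertical axis, linear from 0, a separate scale per gene) of the 10 members in each of the 9 libraries, by group; circles, squares and triangles are replicates 1, 2 and 3, and lines are means of 3 libraries. PMAIP1 lies between 1.22 and 3.90 after SiREV1#1, below every scramble library, and replicate 1 lies away from the other replicates in most panels.

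The count of members that passed the test depended on the block, and each edgeR count is given beside the share or number of all genes tested. Without a block, edgeR's quasi-likelihood test called 0 of 10 members for SiREV1#1, where it called 0.296% of all genes tested. It called 0 for SiREV1#2, against 0.0% of all genes, and 0 between the siRNAs, against 0.676%. At an unadjusted p under 0.05 the same test gave 1 member (PMAIP1), 1 member (BAK1) and 3 members (BAX, BAK1 and PMAIP1) in these comparisons, and 1385, 778 and 1762 of all genes. DESeq2 on the same libraries called 1, 0 and 2 members. Its share of all genes is not given, so nothing is read from these counts. With the replicate block edgeR called 2 members for SiREV1#1 (PMAIP1 and BCL2L11), against 12.3% of all genes. It called 1 for SiREV1#2 (BAK1), against 1.91%, and 4 between the siRNAs (BCL2, BAX, BAK1 and PMAIP1), against 17.6%. The median member changed by a log2 value of -0.11 for SiREV1#1 and -0.13 for SiREV1#2 with the block, while the medians over all genes were 0.004 and 0.007. The exact permutation test on FPKM cannot go below 0.1 with 3 libraries against 3, and 4 of 30 such tests reached that value, with a smallest adjusted p of 0.652.

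**Figure D2:**
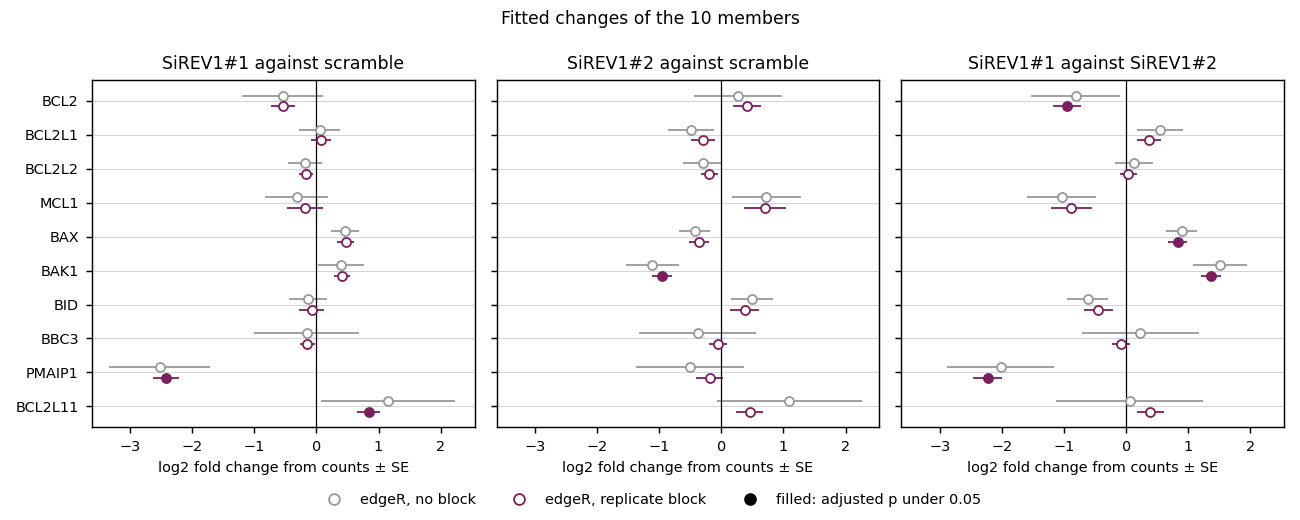
Log2 fold changes of the 10 members from counts (horizontal axis), with bars of 1 SE, from edgeR without a block in grey and with the replicate block in purple; filled points have an adjusted p under 0.05. The 7 filled points are all from the fit with the block, and PMAIP1 lies farthest from 0, at -2.43 and -2.23.

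Among the effectors, BAX and BAK1 were higher with SiREV1#1 and lower with SiREV1#2 than in the same-numbered scramble library in 3 of 3 pairs. BAX and BAK form the pores. BAX was one of the most abundant members, with FPKM of 137.29, 207.52 and 186.09 in the scramble libraries. It was 171.74, 272.95 and 256.44 with SiREV1#1 and 119.64, 139.23 and 144.65 after SiREV1#2. The lowest SiREV1#1 library was above the highest SiREV1#2 library, and both groups overlapped the scramble range.
BAK1 was at 10.72, 22.63 and 20.79 in the scramble libraries, and at 13.42, 28.87 and 26.49 after SiREV1#1. After SiREV1#2 it was at 6.30, 10.07 and 11.08. Here too no SiREV1#1 library overlapped a SiREV1#2 library, and the SiREV1#2 libraries stood at 0.588, 0.445 and 0.533 times the same-numbered scramble libraries.

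With the replicate block, BAK1 fell by 0.95 on the log2 scale after SiREV1#2 (SE 0.16, adjusted p = 0.031 by edgeR). Leaving out any of the 3 scramble libraries, SiREV1#1 replicate 3 or SiREV1#2 replicate 2 lost this call. Over the 8 such fits the value ranged from -1.14 to -0.76, with a highest adjusted p of 0.32 by edgeR. Leaving out scramble replicate 3 or SiREV1#1 replicate 3 gave nearly the same fit (-0.92 in both). Only 1 library with that replicate number then remains in the counts. For SiREV1#1 the estimates with the block were 0.47 for BAX (SE 0.13, adjusted p = 0.056 by edgeR) and 0.42 for BAK1 (SE 0.13, adjusted p = 0.08 by edgeR), neither of them past the threshold. Leaving out SiREV1#1 replicate 1, SiREV1#2 replicate 1 or SiREV1#2 replicate 2 brought BAX past it, with a lowest adjusted p of 0.026 by edgeR. BAX gave -0.36 after SiREV1#2 (SE 0.16, adjusted p = 0.28 by edgeR with the block). The siRNAs differed by 0.83 in BAX (SE 0.16, adjusted p = 0.012 by edgeR with the block) and by 1.37 in BAK1 (SE 0.16, adjusted p = 0.0025 by edgeR with the block). Without a block these differences were 0.89 for BAX (adjusted p = 0.19 by edgeR) and 1.51 for BAK1 (adjusted p = 0.20 by edgeR). The BAK1 difference was called in all 8 fits that left out 1 library with the block, and the BAX difference in 6. The BAX call was lost without SiREV1#1 replicate 2 (0.80, adjusted p = 0.052 by edgeR) and without SiREV1#2 replicate 2 (0.66, adjusted p = 0.087 by edgeR). BAX made up 90.0% to 95.0% of the summed effector FPKM in every library, the highest share being in SiREV1#2 replicate 1.

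**Figure D3:**
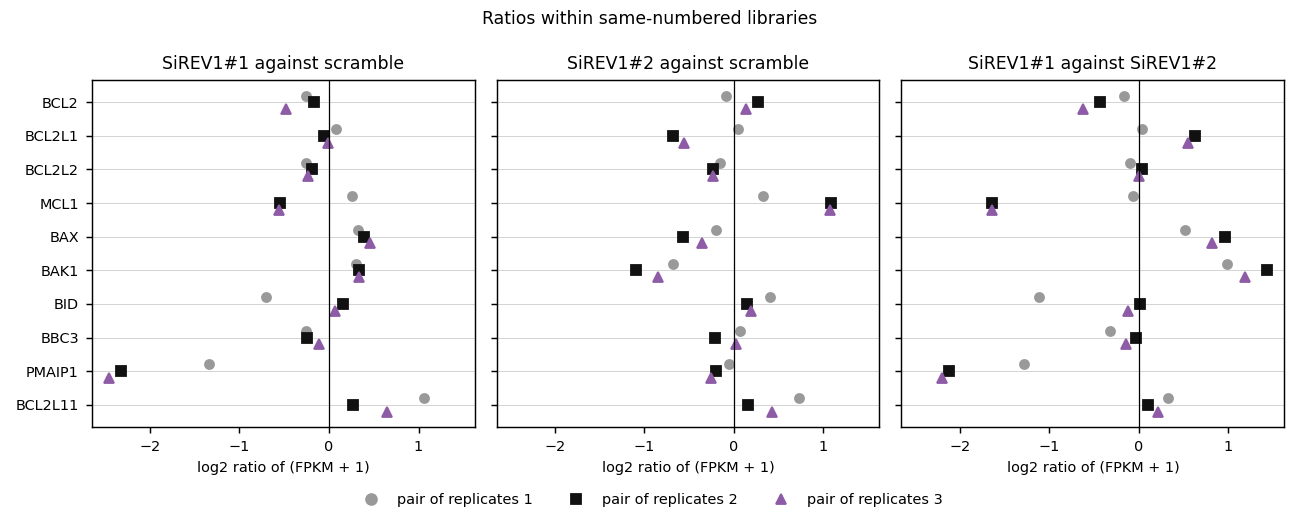
Log2 ratio of (FPKM + 1) within same-numbered libraries (horizontal axis) for each member, with 1 panel per comparison; circles, squares and triangles are the pairs of replicates 1, 2 and 3. BAX and BAK1 lie right of 0 for SiREV1#1 and left of 0 for SiREV1#2 in all 3 pairs, whereas MCL1 changes side between pairs for SiREV1#1.

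Moving one way in every pair was common among all genes. For SiREV1#1, 4 members were lower and 3 higher in 3 of 3 pairs, when 51.6% of all genes tested moved one way in 3 of 3. SiREV1#2 also gave 4 lower and 3 higher, against 52.0%, and the siRNAs against each other gave 4 and 4, against 56.0%. Groups did not overlap for 1 member after SiREV1#1 (PMAIP1) and for 0 after SiREV1#2, when this held for 18.5% and 15.1% of all genes. Between the siRNAs 3 members did not overlap (BAX, BAK1 and PMAIP1), against 22.4%.

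Of the antiapoptotic genes, BCL2L1 and MCL1 carried nearly all of the RNA. BCL2L1 had an FPKM of 109.97, 223.02 and 210.39 in the scramble libraries. After SiREV1#1 it was 115.70, 214.67 and 209.31, and after SiREV1#2 it was 113.19, 138.40 and 142.67. SiREV1#2 replicates 2 and 3 were lower than the matching scramble libraries, at 0.621 and 0.678 times their level, while replicate 1 was at 1.03 times. With the block the log2 change was 0.07 for SiREV1#1 (SE 0.16, adjusted p = 0.83 by edgeR) and -0.30 for SiREV1#2 (SE 0.20, adjusted p = 0.49 by edgeR), so neither passed the test.

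MCL1 encodes a short-lived antiapoptotic protein and had an FPKM of 38.75, 87.20 and 88.78 in the scramble libraries. With SiREV1#1 it was 46.37, 59.18 and 59.93, and with SiREV1#2 it was 48.73, 186.30 and 188.69. Replicates 2 and 3 of SiREV1#2 were the highest of all 9 libraries, and replicate 1 of every group was low. Against the same-numbered scramble libraries MCL1 was at 1.26, 2.14 and 2.13 times their level after SiREV1#2 and at 1.20, 0.679 and 0.675 times after SiREV1#1. With the block its log2 change was 0.70 for SiREV1#2 (SE 0.34, adjusted p = 0.33 by edgeR) and -0.18 for SiREV1#1 (SE 0.29, adjusted p = 0.72 by edgeR). The siRNAs differed by -0.89 (SE 0.33, adjusted p = 0.11 by edgeR with the block). Leaving out SiREV1#1 replicate 1 brought MCL1 past the threshold in all 3 comparisons, at -0.65 for SiREV1#1 (adjusted p = 0.027 by edgeR), 0.78 for SiREV1#2 (adjusted p = 0.025 by edgeR) and -1.42 between them (adjusted p = 0.0029 by edgeR). Leaving out SiREV1#2 replicate 1 did so between the siRNAs, at -1.47. Over the 8 fits that left out a library, the change after SiREV1#2 ranged from 0.04 to 1.24 and the difference between the siRNAs from -1.47 to -0.26.

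MCL1 made up 24.5%, 26.8% and 28.2% of the summed antiapoptotic FPKM in the scramble libraries. After SiREV1#1 it was 27.3%, 20.6% and 21.3%, and after SiREV1#2 28.6%, 55.0% and 54.6%. BCL2L1 led the sum in 7 of 9 libraries, and MCL1 led it in SiREV1#2 replicates 2 and 3. The shares were not tested.

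**Figure D4:**
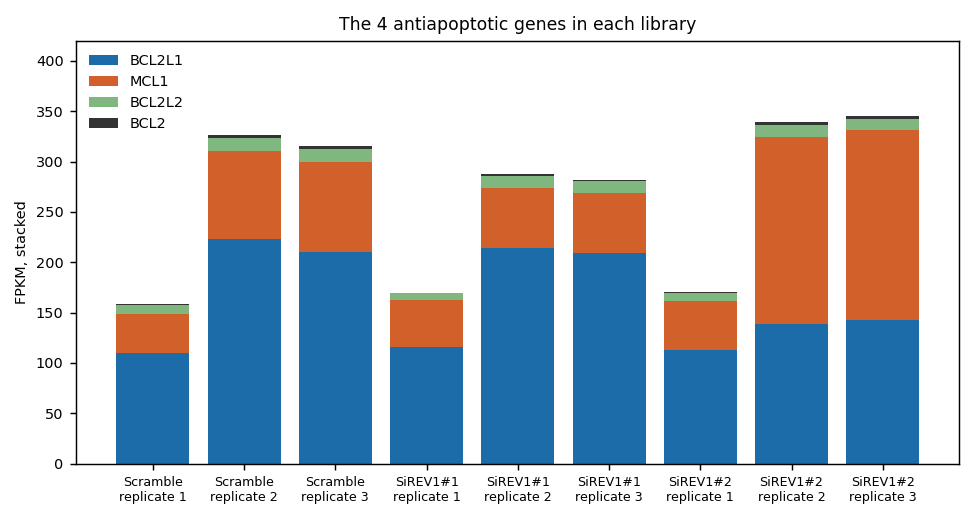
Stacked FPKM (vertical axis, from 0) of the 4 antiapoptotic genes in each library. Replicate 1 sums lie between 158.1 and 170.2 in all 3 groups and the other sums between 282.0 and 345.4, and MCL1 is the larger block in SiREV1#2 replicates 2 and 3.

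BCL2, the founding member, was among the least abundant members, with an FPKM of 0.86, 2.41 and 2.33 in the scramble libraries. It was 0.56, 2.04 and 1.39 with SiREV1#1 and 0.75, 3.10 and 2.67 after SiREV1#2. The replicates of a group spread more widely than the groups did. The siRNAs differed by -0.96 (SE 0.23, adjusted p = 0.027 by edgeR with the block), but this call held in 1 of the 8 fits that left out a library (that without SiREV1#1 replicate 1), with a highest adjusted p of 0.20 by edgeR. Without a block the difference was -0.81 (SE 0.72, adjusted p = 0.78 by edgeR). BCL2L2, which encodes BCL-W, ranged from 6.96 to 13.54 FPKM and was lower than scramble in 3 of 3 pairs for both siRNAs. Its log2 change was -0.17 for SiREV1#1 (SE 0.12, adjusted p = 0.39 by edgeR with the block) and -0.20 for SiREV1#2 (SE 0.14, adjusted p = 0.51 by edgeR with the block), so it did not pass the test. In the reference, 17.9% of its 50-base words also occur in the read-through gene BCL2L2-PABPN1, and 12.3% of those of BAK1 occur in BAK1P1, so their counts may be split with these genes.

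The other members lie as follows in GRCh38. BCL2 spans 63123346 to 63320090 on chromosome 18 (minus), BCL2L1 31664452 to 31723963 on chromosome 20 (minus), BCL2L2 23306833 to 23311751 on chromosome 14 (plus) and MCL1 150574558 to 150579610 on chromosome 1 (minus). BID spans 17734138 to 17774665 on chromosome 22 (minus), BBC3 47220824 to 47232860 on chromosome 19 (minus) and BCL2L11 111120914 to 111168445 on chromosome 2 (plus). Exons of ABALON overlap BCL2L1 and those of GGNBP1 overlap BAK1, both on the other strand, and ADAMTSL4-AS1 overlaps MCL1 on the same strand.

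The BH3-only genes include BBC3, PMAIP1 and BCL2L11, whose replicate 1 lay far from the other replicates. BCL2L11, the BIM gene, had an FPKM of 10.50, 2.59 and 2.49 in the scramble libraries, 22.92, 3.33 and 4.45 with SiREV1#1 and 18.07, 3.02 and 3.69 after SiREV1#2. Replicate 1 was the highest in each group, and every siRNA library exceeded its same-numbered scramble library. With the block BCL2L11 rose by 0.84 on the log2 scale after SiREV1#1 (SE 0.19, adjusted p = 0.029 by edgeR), a call lost when any of the 3 scramble libraries or SiREV1#1 replicate 3 was left out, where the highest adjusted p was 0.093 by edgeR. After SiREV1#2 the estimate was 0.46 (SE 0.22, adjusted p = 0.33 by edgeR with the block), and the siRNAs differed by 0.38 (SE 0.22, adjusted p = 0.26 by edgeR). BCL2L11 overlaps an exon of MIR4435-2HG on the other strand, and strand use in counting is not stated in the sources used here.

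BBC3, the PUMA gene, had an FPKM of 9.80, 53.79 and 47.38 in the scramble libraries, 8.05, 45.28 and 43.76 with SiREV1#1 and 10.35, 46.46 and 48.33 after SiREV1#2. The ranges of the groups overlapped, and the changes with the block were -0.15 for SiREV1#1 (SE 0.12, adjusted p = 0.48 by edgeR) and -0.06 for SiREV1#2 (SE 0.15, adjusted p = 0.88 by edgeR). BID, which is cut by caspase-8 to reach the mitochondrion, was at 27.21, 17.05 and 16.51 in the scramble libraries, 16.29, 19.16 and 17.30 with SiREV1#1 and 36.36, 18.94 and 18.94 after SiREV1#2. Its replicate 1 moved in opposite directions for the siRNAs, and neither change passed the test (adjusted p = 0.84 and 0.45 by edgeR with the block). BBC3 led the summed BH3-only FPKM in replicates 2 and 3 of every group, with 51.9% to 63.2% of it, whereas BID or BCL2L11 led in replicate 1.

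Leaving out replicate 1 altogether gave more calls among members and among all genes. Over replicates 2 and 3, limma on log2(FPKM + 1) called 7 members for SiREV1#1, when it called 46.7% of all genes. It called 6 for SiREV1#2, against 45.4%, and 6 between the siRNAs, against 60.7%. In that fit MCL1 was lower by a log2 difference of -0.56 with SiREV1#1 and higher by 1.08 after SiREV1#2. These values rest on 2 libraries per group whose FPKM lie close together.

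Which genes outside the family followed the same course was described for the 3 members with the smallest p against scramble, over both siRNAs, in the fit with the block. Pearson's r was taken over the 9 libraries after removing the mean of each replicate number, among 11428 genes with a mean FPKM above 1. PMAIP1 was closest to EIF3E (0.999), COPG1 (0.998) and PDCL3 (0.998), and BAK1 to LRP5 (0.997), USF2 (0.996) and ZNF579 (0.996). BCL2L11 was closest to SMPD1 (0.973), RBPMS2 (0.971) and ATP5MC2 (0.969). The 9 points share their groups and replicate numbers, so these values are descriptions.

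Around the family, 52 further genes of apoptosis were followed, of which 49 were tested. Without a block edgeR called 1 of them for SiREV1#1, 0 for SiREV1#2 and 2 between the siRNAs. The same fit called 0.296%, 0.0% and 0.676% of all genes tested. Among the 2 was CASP9, which was higher after SiREV1#1 than after SiREV1#2. With the block edgeR called 2 higher and 3 lower for SiREV1#1, and 1 higher and 1 lower for SiREV1#2. Between the siRNAs it called 5 higher and 6 lower, of 49 tested. Over all genes that fit called 12.3%, 1.91% and 17.6%, and nothing particular to the list is read from its counts. The other BCL2 family members had 0 calls of 11 tested for each siRNA in this fit, and the death receptors and adaptors had 0 of 11.

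CASP9, the initiator that works with APAF1, was at 3.85, 5.93 and 7.21 in the scramble libraries, 5.05, 10.0 and 9.37 with SiREV1#1 and 0.95, 1.45 and 1.51 after SiREV1#2. Here the SiREV1#2 libraries stood apart. With the block it rose by 0.57 after SiREV1#1 (SE 0.15, adjusted p = 0.048 by edgeR) and fell by 1.93 after SiREV1#2 (SE 0.20, adjusted p = 0.0092 by edgeR). The siRNAs differed by 2.64 without a block (SE 0.40, adjusted p = 0.041 by edgeR).

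Further called genes included inhibitors of apoptosis and ubiquitin ligases. BIRC3, an inhibitor of apoptosis, rose by 1.06 after SiREV1#2 (SE 0.17, adjusted p = 0.029 by edgeR with the block), with an FPKM of 14.42, 120.91 and 125.73 against 8.48, 51.14 and 49.71 in the scramble libraries. BIRC5, which encodes survivin, fell by 0.52 after SiREV1#1 (SE 0.13, adjusted p = 0.036 by edgeR with the block). Its value of -0.58 after SiREV1#2 did not pass (adjusted p = 0.095 by edgeR with the block). Within same-numbered pairs BIRC5 stood at 0.574, 0.795 and 0.660 times the scramble level after SiREV1#1. After SiREV1#2 it stood at 0.626, 0.707 and 0.608 times that level. FBXW7, part of a ligase that marks MCL1 for degradation, rose by 0.73 after SiREV1#1 (SE 0.17, adjusted p = 0.031 by edgeR with the block). Within same-numbered pairs it stood at 1.02, 2.08 and 1.85 times the scramble level. This rise was called neither without a block nor by limma on log2(FPKM + 1) with the block. MDM2, also a ubiquitin ligase, fell by 1.53 after SiREV1#1 (SE 0.17, adjusted p = 0.0025 by edgeR with the block). CDKN1A, which encodes the cell cycle inhibitor p21 and was named after its values were seen, differed between the siRNAs by 0.99 (SE 0.25, adjusted p = 0.033 by edgeR with the block). Its FPKM was 67.76, 356.38 and 341.69 in the scramble libraries and 120.46, 366.83 and 345.94 with SiREV1#1. After SiREV1#2 it was 61.22, 181.36 and 184.42. Against scramble CDKN1A was called for neither siRNA with the block.

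**Figure D5:**
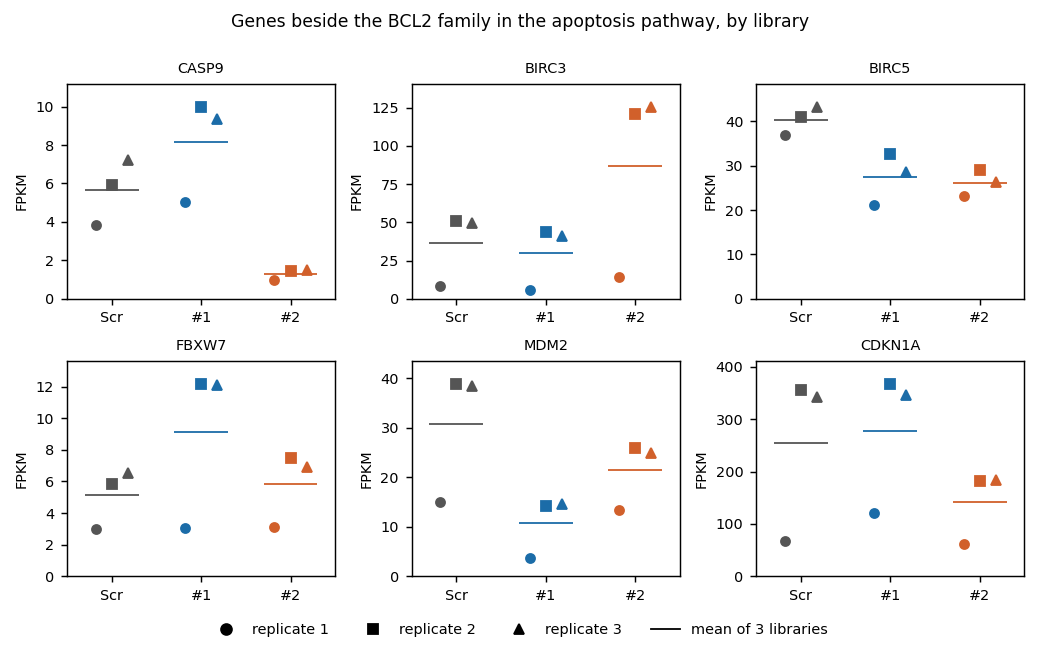
FPKM (vertical axis, linear from 0, a separate scale per gene) of 6 genes of the apoptosis pathway in each library; symbols are replicates 1, 2 and 3 and lines are means of 3 libraries. CASP9 lies between 0.95 and 1.51 after SiREV1#2, below every other library, and BIRC3 is highest in SiREV1#2 replicates 2 and 3, at 120.91 and 125.73.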

How the data were processed

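RNA was sequenced from 9 A549 libraries, 3 per group. For each library the authors deposited FPKM values and expected counts per gene. The submitters' processing notes name StringTie 1.3.3b and hg38, without their role, and the aligner is not given in the sources used here. Of the count values, 42.6% were not whole, so they were rounded. Same-numbered libraries were compared because the sample titles number the replicates, and after subtracting group means their values correlated at 0.724 to 0.924 over 9 pairs. This came from replicate 1, since differences between replicates 2 and 3 correlated at -0.18 to 0.138.

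Genes were filtered by filterByExpr, scaled by TMM and tested with edgeR 4.0.16 (R 4.3.3) in 1 fit of the 3 groups. The biological coefficient of variation was 0.412 without a block and 0.161 with it. The fits were tested on simulated data. Alternatives used DESeq2 1.42.0, RLE scaling, no filter, limma 3.58.1 on log2(FPKM + 1) or log2(FPKM + 0.1), replicates 2 and 3 only, and each library left out. Members, gene lists and tests were chosen with earlier results of these data known. All 10 members are named, with every pathway gene called without a block and otherwise up to 4 per list called with it, except that some pathway genes counted in the lists are not reported here by name. A repeated count column was not used. Promoter sequences and gene positions are from RefSeq GRCh38.p14, and overlapping exons and shared words from GENCODE release 29. Python 3.11.15 was used for the rest.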

Additional observations from a re-analysis of the deposited data

Results flagged for a closer look

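The direct contrast of SiREV1#1 with SiREV1#2 in edgeR with the replicate block called 4 of 10 members, against 17.6% of all genes. PMAIP1 differed by -2.23 on the log2 scale, BAK1 by 1.37, BAX by 0.83 and BCL2 by -0.96. The BCL2 call was lost in most of the fits that left out a library, and the BAX call in some of them. In the same contrast without a block the adjusted p was 0.40 for PMAIP1, 0.20 for BAK1, 0.19 for BAX and 0.78 for BCL2. DESeq2, also without a block, called BAK1 (1.499) and BAX (0.881) but not PMAIP1 or BCL2 in this contrast. The share of all genes that DESeq2 called is not given, so nothing is read from these calls. SiREV1#2 has 2 libraries with counts of their own in these fits.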

How the results depend on the processing

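Of 450 fits of a single member under an alternative, 382 kept the direction and side of the threshold of the edgeR fit without a block, 37 kept the direction and passed the threshold, and 31 changed sign. That fit called no member, so it had no call to lose. The causes were not tested.

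For SiREV1#1, SiREV1#2 and the difference between them, the fit without a block called 0, 0 and 0 members. Over all genes it called 0.296%, 0.0% and 0.676%. The replicate block called 2, 1 and 4, against 12.3%, 1.91% and 17.6% of all genes. DESeq2 called 1, 0 and 2, and its share of all genes is not given. The fit of limma on log2(FPKM + 1) with the replicate block called 2, 1 and 5, and replicates 2 and 3 only gave 7, 6 and 6. Of the 14205 genes tested, limma with the block called 2201, 1223 and 4373, and replicates 2 and 3 only gave 6638, 6456 and 8621. Of the 49 pathway genes tested, the fit without a block called 1, 0 and 2, and the block called 5, 2 and 11. With the block limma called 4, 6 and 18, and replicates 2 and 3 only gave 28, 34 and 35. Calls over all genes also rose from the fit without a block to replicates 2 and 3 only. Nothing particular to the pathway genes is read from these counts. Among the pathway genes DESeq2 called 2 for SiREV1#2 and 6 for the difference, and no filter left 1 for the difference. The shares of all genes called by DESeq2 and without the filter are not given.

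Leaving out 1 library at a time with the block, the members called ranged from 1 to 4 for SiREV1#1, from 0 to 2 for SiREV1#2 and from 2 to 5 for the difference. Without the block it was 0 in the 8 such fits of each comparison. Leaving out a SiREV1#2 library leaves 1, which is assumed to vary like the other groups. With the block, leaving out scramble replicate 3 or SiREV1#1 replicate 3 gives nearly the same fit. The shares of all genes called in the fits that left out a library are not given. The ranges are therefore not read as changes in the members.

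These estimates changed sign. On replicates 2 and 3 only, SiREV1#1 gave -0.031 for BCL2L1 and 0.112 for BID. The difference between the siRNAs in BBC3 was -0.086 with the replicate block, -0.168 by limma with and without the block and -0.088 on replicates 2 and 3 only, and in BCL2L2 it was -0.02 by limma with and without the block. With libraries left out singly and no block, SiREV1#1 ranged from -0.208 to 0.254 in BCL2L1, -0.254 to 0.13 in BID, -0.609 to 0.273 in BBC3 and -0.479 to 2.184 in BCL2L11. SiREV1#2 ranged from -0.864 to 0.893 in BCL2, -0.519 to 1.382 in MCL1, -0.081 to 0.9 in BID, -1.788 to 0.315 in BBC3, -1.952 to 0.206 in PMAIP1 and -0.887 to 2.131 in BCL2L11. The difference ranged from -1.443 to 0.322 in BCL2, -0.124 to 0.422 in BCL2L2, -1.708 to 0.201 in MCL1, -0.483 to 1.628 in BBC3 and -1.58 to 2.034 in BCL2L11.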
